A study of Homo sapiens with 4 samples.

Results

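The BCL2 family genes that set survival or death at the mitochondrion were followed on 4 expression arrays of THP-1, a human cell line derived from acute monocytic leukaemia. The members were 10 listed genes, and every probe set annotated to them was read, 31 in all out of 54675 on the array. A probe set is a group of short probes that reads part of a transcript. Of the 10 genes, 9 had at least 1 probe set that names the gene alone, out of 19775 genes with such a probe set. These 9 had 30 probe sets between them.

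The 4 arrays had 1 condition each and no replicates. One held cells treated with the lipopeptide Pam3CSK4, an activator of the TLR1 and TLR2 receptor pair, and kept with platelet-like particles for 24 h. The second held the same combination at 12 h, the third cells treated with Pam3CSK4 without particles, and the last resting cells. The labels name neither the cells that shed the particles nor the length of treatment on the Pam3CSK4 array, so time and particles cannot be told apart in the co-culture comparisons. All 4 arrays come from the same leukaemic line, whose survival genes need not match those of blood monocytes. Values are deposited log2 values of an RMA normalization, which forces all arrays to a common distribution. A difference of 1 is thus 2-fold, and a global change of RNA content is not visible. Total RNA of a culture was measured, so fewer cells of a type and less RNA per cell cannot be told apart. With 1 array per condition no test was possible. The only spread at hand was the range over the probe sets of a gene, which read the same RNA. That range does not measure the spread between cultures, and BCL2A1 and BAK1 have 1 probe set each.

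BCL2 family proteins decide whether the outer membrane of the mitochondrion is breached, which frees cytochrome c and starts the caspase cascade. BAX and BAK1 form the pores. BCL2, BCL2L1 (BCL-XL), MCL1 and BCL2A1 (A1 or BFL-1) bind and hold back the pore formers and their activators. The BH3-only proteins BCL2L11 (BIM), BID, PMAIP1 (NOXA) and BBC3 (PUMA) sense stress and trigger the pore formers or block the survival proteins. Monocytes are short-lived cells, and NF-kB, which Toll-like receptors switch on, is a known activator of BCL2A1.

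RefSeq promoter windows of the human assembly GRCh38.p14, each from 250 bases before to 50 bases after an annotated transcription start, were present for 9 of the 10 members, with 14 windows between them. Of these, 3 are shown because their genes carried the largest differences described below: BCL2A1 and BCL2 after Pam3CSK4, and PMAIP1 at 12 h of co-culture. Capitals mark CG dinucleotides and the word TATAAA, and each sequence reads 5′ to 3′ along the strand of its gene. The BCL2A1 window lies at chr15:79971147-79971446 on the minus strand, the BCL2 window at chr18:63319720-63320019 on the minus strand, and the PMAIP1 window at chr18:59899746-59900045 on the plus strand.
BCL2A1: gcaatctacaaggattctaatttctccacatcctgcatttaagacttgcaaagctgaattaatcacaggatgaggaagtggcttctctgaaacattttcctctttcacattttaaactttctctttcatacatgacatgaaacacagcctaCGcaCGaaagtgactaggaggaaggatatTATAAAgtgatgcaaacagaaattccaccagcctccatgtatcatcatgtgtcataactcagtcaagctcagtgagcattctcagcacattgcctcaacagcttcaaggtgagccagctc
BCL2: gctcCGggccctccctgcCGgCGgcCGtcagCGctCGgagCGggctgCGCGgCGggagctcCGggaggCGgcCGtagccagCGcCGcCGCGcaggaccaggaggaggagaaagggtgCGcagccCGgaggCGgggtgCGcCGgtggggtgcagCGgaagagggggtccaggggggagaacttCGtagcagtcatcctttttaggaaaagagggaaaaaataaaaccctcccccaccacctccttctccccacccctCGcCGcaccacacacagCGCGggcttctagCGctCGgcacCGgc
PMAIP1: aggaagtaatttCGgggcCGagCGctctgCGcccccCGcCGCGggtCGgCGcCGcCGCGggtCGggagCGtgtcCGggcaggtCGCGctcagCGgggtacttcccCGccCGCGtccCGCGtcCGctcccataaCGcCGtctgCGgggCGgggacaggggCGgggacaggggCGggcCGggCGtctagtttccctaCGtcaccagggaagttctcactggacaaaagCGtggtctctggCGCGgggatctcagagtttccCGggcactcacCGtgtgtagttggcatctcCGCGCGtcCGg

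The BCL2A1 window held 2 CG dinucleotides and 41% G and C bases, against 31 and 70.7% in the BCL2 window and 42 and 71.3% in that of PMAIP1. The median over all 35116 windows was 14 CG dinucleotides. Of all windows, 18.2% had no more CG dinucleotides than that of BCL2A1, and 95.02% had no more than that of PMAIP1. TATAAA, searched on both strands, began 70 bases before the BCL2A1 start and was found in 11.5% of all windows. Among the members it was found otherwise only in 1 of the 2 BCL2L1 windows.

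Further words were searched on both strands, with overlaps counted. The BCL2A1 window held TTCNNNGAA, the letters of a STAT element, starting 168 bases before the start, and the core letters of an interferon response element, starting 133 bases before it on the opposite strand. These words occurred in 7.66% and 3.57% of all windows, and the interferon core was also in that of BBC3. The 10-base NF-kB consensus was in 11.3% of all windows and in none of the 14 of these genes, which says only that these letters are not in these windows. GGGCGG, the GC box, was in 45.0% of all windows, in 9 of the 14 and 4 times in that of PMAIP1. CACGTG, the E-box, was in 7.26% of all windows in 4 of the 14, those of BAX, BBC3 and 2 of BID, and began at 4 places in that of BAX. BAX also held CCAAT, which was in 34.6% of all windows and was found as well for BAK1, BBC3 and BCL2L11. GTAAACA, the letters of a FOXO element, was in 3.42% of all windows and in that of BCL2L11. TGANTCA, the AP-1 element, was in 7.71% of all windows and in that of BBC3. Each match is a description of the letters.

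Each gene is given below by the probe set with the highest 4-array mean, with the others as a range. A probe set entered the comparisons where any array gave 6.19 log2 or more, the median of the whole table, which held for 24 of the 30. All 9 genes entered in this way, among 13410 genes in all. Low values can be background, and no detection calls were used here.

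Among the survival genes, BCL2A1 had 9.09 log2 at 24 h of co-culture, 9.44 at 12 h, 8.43 with Pam3CSK4 and 4.08 in resting cells, on its only probe set. It was high on all 3 treated arrays, highest at 12 h, and under the filter level at rest. BCL2 ran the other way, with 9.37 log2 at 24 h, 9.36 at 12 h, 9.47 with Pam3CSK4 and 11.22 in resting cells. Its 3 treated values lay within 0.11 of each other and well below the resting one. MCL1, a survival protein of rapid turnover, had 11.85 log2 at 24 h, 11.82 at 12 h, 11.90 with Pam3CSK4 and 11.75 at rest, a span of 0.15 over all arrays. BCL2L1 was as level on its leading probe set, with a span of 0.13. It had 8.76 log2 at 24 h, 8.89 at 12 h, 8.78 with Pam3CSK4 and 8.81 at rest. Their other probe sets past the filter were less level, with spans of 0.25 to 0.59 for MCL1 and 0.46 for BCL2L1. The order of the arrays for these genes of small span has no measured spread between cultures behind it.

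Of the pore formers, BAX had 8.59 log2 at 24 h, 8.01 at 12 h, 8.82 with Pam3CSK4 and 8.94 in resting cells. Its second probe set had 8.24, 7.70, 8.30 and 8.47 log2 in the same order of arrays. On both, the 12 h array was lowest and the resting array highest. BAK1, read by 1 probe set, had 8.69 log2 at 24 h, 8.64 at 12 h, 8.74 with Pam3CSK4 and 8.68 at rest. Its span of 0.10 was the smallest of the 9 genes.

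Among the BH3-only genes, BID, which caspase 8 cleaves to link death receptors with the mitochondrion, had 11.84 log2 at 24 h, 11.68 at 12 h, 11.80 with Pam3CSK4 and 10.87 at rest. The 3 treated arrays were close together and above the resting one on each of its 3 probe sets. PMAIP1, whose protein binds MCL1, had 9.83 log2 at 24 h, 8.90 at 12 h, 9.91 with Pam3CSK4 and 9.44 in resting cells. The 12 h array was the low one, on this and on its second probe set, where the values were 9.53 log2 at 24 h, 9.14 at 12 h, 9.39 with Pam3CSK4 and 9.35 at rest. BCL2L11, which can bind all the survival proteins, had 9.96 log2 at 24 h, 9.68 at 12 h, 10.13 with Pam3CSK4 and 10.28 in resting cells, a span of 0.59 with the 12 h array lowest. BBC3 had no probe set of its own. The 1 probe set annotated to it also names 2 microRNA genes in the same place, MIR3190 and MIR3191, and cannot be assigned to BBC3 alone. It had 7.08 log2 at 24 h, 7.23 at 12 h, 7.31 with Pam3CSK4 and 7.02 at rest, and was left out of the counts.

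**Figure D1:**
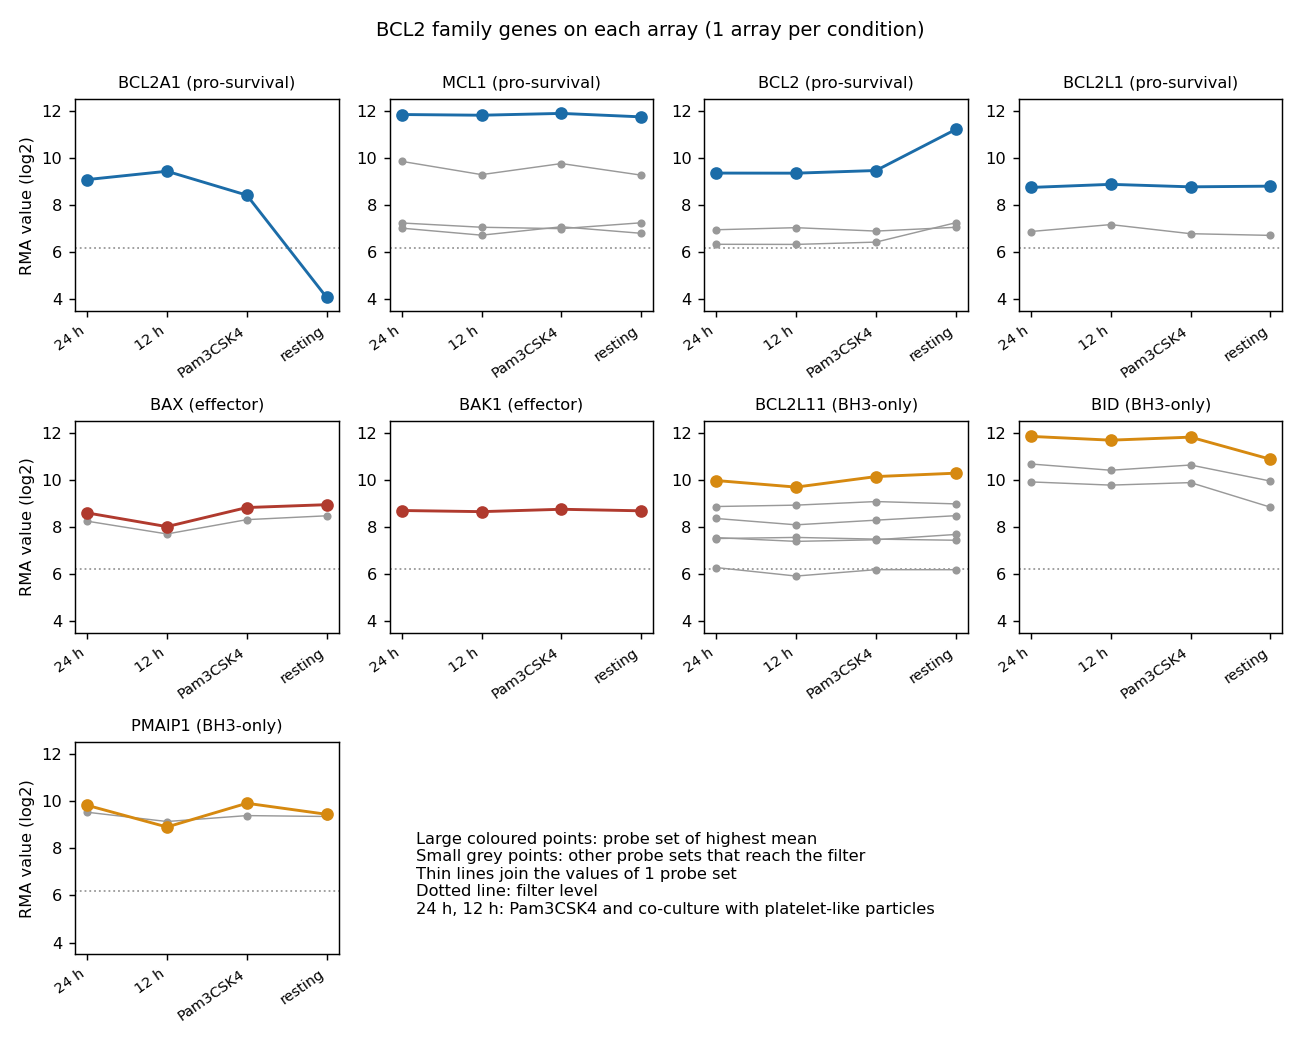
RMA values (log2, vertical axis) of the 24 probe sets that reach the filter level for 9 BCL2 family genes, on the 24 h, 12 h, Pam3CSK4 and resting arrays (horizontal axis, 1 array each). Coloured points are the probe set of highest mean, grey points the others, and the dotted line is the filter level of 6.19; BCL2A1 stands at 9.44 at 12 h against 4.08 at rest, and BCL2 at 9.47 with Pam3CSK4 against 11.22 at rest.

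Set against resting cells, Pam3CSK4-treated cells had far more message of the survival gene BCL2A1 and less of the survival gene BCL2. BCL2A1 was 4.34 log2 higher, or 20.3-fold, and BCL2 was 1.75 log2 lower, or 3.36-fold. BID was 0.94 higher, or 1.92-fold, just short of the 2-fold line. Because the resting BCL2A1 value was under the filter level, the exact size of its difference depends on background.

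At least 2-fold higher was 1 of the 9 genes, BCL2A1, where 4.14% of all 13410 genes were that much higher. At least 2-fold lower was 1 of the 9, BCL2, where 1.71% of all genes were. The median difference of the 9 was 0.07, against -0.05 over all genes. A difference as large as that of BCL2A1 in either direction was seen for 0.201% of all genes, and one as large as that of BCL2 for 2.29%.

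The BCL2 probe sets did not give 1 size. The difference was -1.75, -0.82 and -0.16 on the 3 probe sets past the filter, and the remaining one stayed under the filter level on all arrays. The probe set with -1.75 is annotated to the transcript of the alpha form of the protein, and those with -0.16 and under the filter to that of the shorter beta form. The mean over all 4 probe sets was -0.72, under 2-fold. GAPDH has control probe sets near both ends of its transcript, and a larger excess of the 3' over the 5' value accompanies shorter RNA. That excess was 0.59 log2 with Pam3CSK4 and 2.16 at rest, and the same excess for ACTB was 2.91 with Pam3CSK4 and 3.41 at rest. The part of RNA integrity in this result was not tested.

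The 3 BID probe sets were all higher with Pam3CSK4, by 0.68, 0.94 and 1.04, so that 1 of them passed 2-fold. PMAIP1 was 0.47 higher on one probe set and 0.04 on the other. MCL1 probe sets ran from -0.25 to 0.49 and did not share a sign. BCL2L11 probe sets ran from -0.23 to 0.10, those of BAX stood at -0.12 and -0.16, those of BCL2L1 at -0.03 and 0.07, and BAK1 stood at 0.07. These values lie well inside 2-fold.

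**Figure D2:**
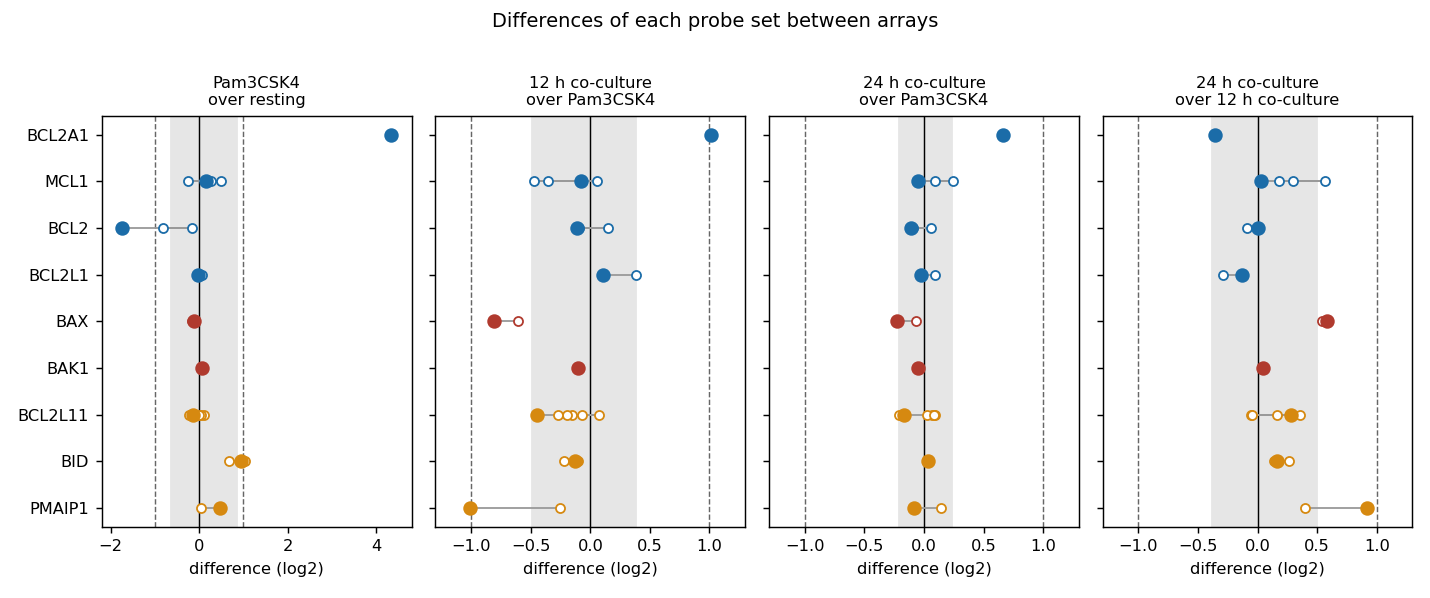
Difference between 2 arrays (log2, horizontal axis, wider scale in the left panel) for each probe set of 9 BCL2 family genes in 4 comparisons. Filled points are the probe set of highest mean, open points the others; the grey band holds the middle 90% of all genes past the filter and dashed lines mark 2-fold. BCL2A1 lies at 4.34 and BCL2 at -1.75 in the left panel, and BCL2A1 at 1.02 and PMAIP1 at -1.01 at 12 h.

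The other genes of the pathway were taken from lists. Over all genes, 4.14% were at least 2-fold higher with Pam3CSK4 than at rest and 1.71% lower, with a median of -0.05. Among 10 other BCL2 family genes past the filter, of 13 listed, 2 were at least 2-fold higher with Pam3CSK4 and 0 lower, with a median of -0.04. BMF, a BH3-only gene whose product is held at the cytoskeleton in healthy cells, had 8.81 log2 with Pam3CSK4 against 6.94 at rest, a difference of 1.87. BNIP3L, which marks mitochondria for removal, differed by 1.32, and by 0.60 on its other probe set. Among apoptosome genes, caspases and their inhibitors, 10 of 13 listed genes passed the filter and 0 were 2-fold different, with a median of 0.03.

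In the death receptor pathway, which leads to BID, 3 of 9 genes past the filter were at least 2-fold higher, where 4.14% of all genes were. At least 2-fold lower were 0, with 12 listed and a median of 0.17. CFLAR, the inhibitor of caspase 8, had 10.12 log2 with Pam3CSK4 against 8.50 at rest, a difference of 1.61 that ranged from 0.30 to 1.68 over 12 probe sets. TNFRSF10B, a receptor of TRAIL, differed by 1.405 on its leading probe set and by at least 0.61 on the others, and TNFSF10, which encodes TRAIL, by 1.08. The inhibitor, a receptor and the ligand thus stood higher on the same array.

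Of the transcription factors known to act on this family, 2 of 13 were at least 2-fold higher, where 4.14% of all genes were. At least 2-fold lower were 0 (median 0.21, 14 listed). The 2 higher ones were RELB, at 2.63, and NFKB1, at 1.54, both NF-kB subunits. REL, the subunit tied to BCL2A1 in lymphocytes, differed by 0.85, with a range from 0.47 to 0.85 over its 4 probe sets past the filter. NF-kB targets outside the family were higher almost throughout, with 10 of 11 at least 2-fold higher, 0 lower and a median of 2.97 (12 listed). CCL4 differed by 5.16, ICAM1 by 3.70, NFKBIZ by 3.34 and PTX3 by 3.21 on their leading probe sets. The 3 ICAM1 probe sets past the filter ran from 0.83 to 5.16, and the 2 of NFKBIZ from 2.37 to 3.34. Of the 8 genes for outer membrane partners of BAK1 and BID and for MCL1 turnover, 0 were 2-fold different (median 0.09).

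After 12 h with the particles, BCL2A1 was higher again than with Pam3CSK4 alone, and PMAIP1 and BAX were lower. BCL2A1 differed by 1.02 log2, or 2.02-fold, and PMAIP1 by -1.01, or 2.01-fold, both just past the 2-fold line. BAX differed by -0.81, or 1.75-fold, and by -0.61 on its other probe set. BCL2, which had differed most downward with Pam3CSK4, stood at -0.11.

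At least 2-fold higher was 1 of the 9 genes, where 0.41% of all genes were, and at least 2-fold lower was 1 of the 9, where 0.35% of all genes were. The median of the 9 was -0.11, against -0.05 over all genes. Of the 9 genes 7 were lower by any size, as were 58.7% of all genes. On leading probe sets, BCL2, BCL2L11, BAX, BAK1 and PMAIP1 had their lowest value of the 4 arrays at 12 h, as did 41.3% of all genes. Counted over probe sets, several of them from 1 gene, 12 of the 24 past the filter were lowest at 12 h. That count has no like share over all genes beside it.

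The PMAIP1 call rested on 1 of 2 probe sets. It was -1.01 on the leading probe set and -0.25 on the other, with a mean of -0.63, and -0.91 after a cyclic loess normalization. The 12 h array shifted with level: genes with a mean of 8 to 10 log2, where PMAIP1 and BAX lie, had a median difference of -0.09, and those of 6 to 8 log2 one of 0.02. The GAPDH control gap was 0.92 log2 at 12 h and 0.59 with Pam3CSK4, that of ACTB 3.17 and 2.91, and their part was not tested.

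BCL2L11 was lower at 12 h by 0.45 on its leading probe set, and 5 of its 6 probe sets were lower, from -0.45 to 0.07. All 3 BID probe sets were lower by a small amount, from -0.22 to -0.11. MCL1 stood at -0.08 on its leading probe set and at -0.47 on another whose suffix _x_at marks possible binding to related transcripts, with a range up to 0.06. BCL2L1 was 0.11 and 0.39 higher on its 2 probe sets past the filter, and BAK1 stood at -0.10. The survival genes BCL2 and MCL1 were thus among the 7 genes with lower leading values, alongside BAX, BAK1 and the BH3-only genes. Genes with a mean of 10 to 12 log2, where BID lies, had a median difference of -0.11, close to the -0.13 of BID.

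Few genes around the family reached 2-fold at 12 h, as was so of all genes. None of 10 other BCL2 family genes, 10 apoptosome and caspase genes, 9 death receptor pathway genes, 13 transcription factors and 8 partner and turnover genes was 2-fold different. Their medians were -0.17, -0.08, -0.15, 0.13 and -0.03. BMF stood at 8.81 log2 on the 12 h and Pam3CSK4 arrays alike. REL was 0.57 higher, with a range from 0.15 to 0.57 over its 4 probe sets. Of 11 NF-kB targets, 2 were at least 2-fold higher, the stress-response gene IER3 at 1.14 and CCL4 at 1.10. The median of these targets was 0.26, against -0.05 over all genes. Of the 11, 11 were above their Pam3CSK4 value, by 0.0045 to 1.14, where 58.7% of all genes were lower by any size. The list was chosen with earlier results of these data known.

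After 24 h with the particles, the family was close to its state with Pam3CSK4 alone, apart from BCL2A1. BCL2A1 was 0.66 log2 higher, or 1.58-fold. The other 8 genes lay between -0.23 and 0.03 on their leading probe sets. The 9 genes held 0 at least 2-fold higher, where 0.0298% of all genes were, and 0 lower, where 0% were. A difference as large as that of BCL2A1 was seen for 0.119% of all genes, on arrays that were close to each other throughout. The 12 h and 24 h comparisons share the Pam3CSK4 array, so their values are not independent.

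BAX, next in size, stood at -0.23 and -0.06 on its 2 probe sets, and BCL2L11 at -0.17 on its leading one, with a range from -0.21 to 0.09. PMAIP1 stood at -0.09 and 0.14. BID differed by 0.03, 0.04 and 0.03, BAK1 by -0.05, BCL2 by -0.11 and BCL2L1 by -0.03. MCL1 ran from -0.06 to 0.24 over its probe sets. In the 6 wider lists of the pathway described here 0 genes were 2-fold different at 24 h, and their medians ran from -0.10 for the transcription factors to 0.06 for NF-kB targets. REL stood at -0.10 on its leading probe set, with a range from -0.19 to 0.39 over its 4 probe sets past the filter.

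Set directly against each other, the 24 h and 12 h arrays differed by less than 2-fold in each of the 9 genes, with PMAIP1 and BAX leading. PMAIP1 differed by 0.92, or 1.90-fold, and by 0.39 on its other probe set. BAX differed by 0.58 and 0.54, and BCL2A1 by -0.35. Of the 9 genes, 0 were at least 2-fold higher, where 0.343% of all genes were, and 0 at least 2-fold lower, where 0.224% were. A difference as large as that of PMAIP1 was seen for 0.790% of all genes one as large as that of BAX for 4.54% and one as large as that of BCL2A1 for 17.6%. All 4 MCL1 probe sets past the filter were higher at 24 h than at 12 h, from 0.03 to 0.56. BCL2L11 ran from -0.06 to 0.36, and BID from 0.14 to 0.27.

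Around the family the 24 h over 12 h differences were below 2-fold in all 6 lists. NF-kB targets had a median of -0.27, with 9 of 11 lower at 24 h, and the transcription factors one of -0.24, with 12 of 13 lower. The median over all genes was 0.04, and these counts have no like share over all genes beside them. REL differed by -0.67 on its leading probe set, with a range from -0.67 to -0.01 over its 4 probe sets past the filter. NFKB1, with 1 probe set past the filter, differed by -0.68. Other BCL2 family genes had a median of 0.20 and death receptor pathway genes one of 0.15, against 0.04 over all genes.

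**Figure D3:**
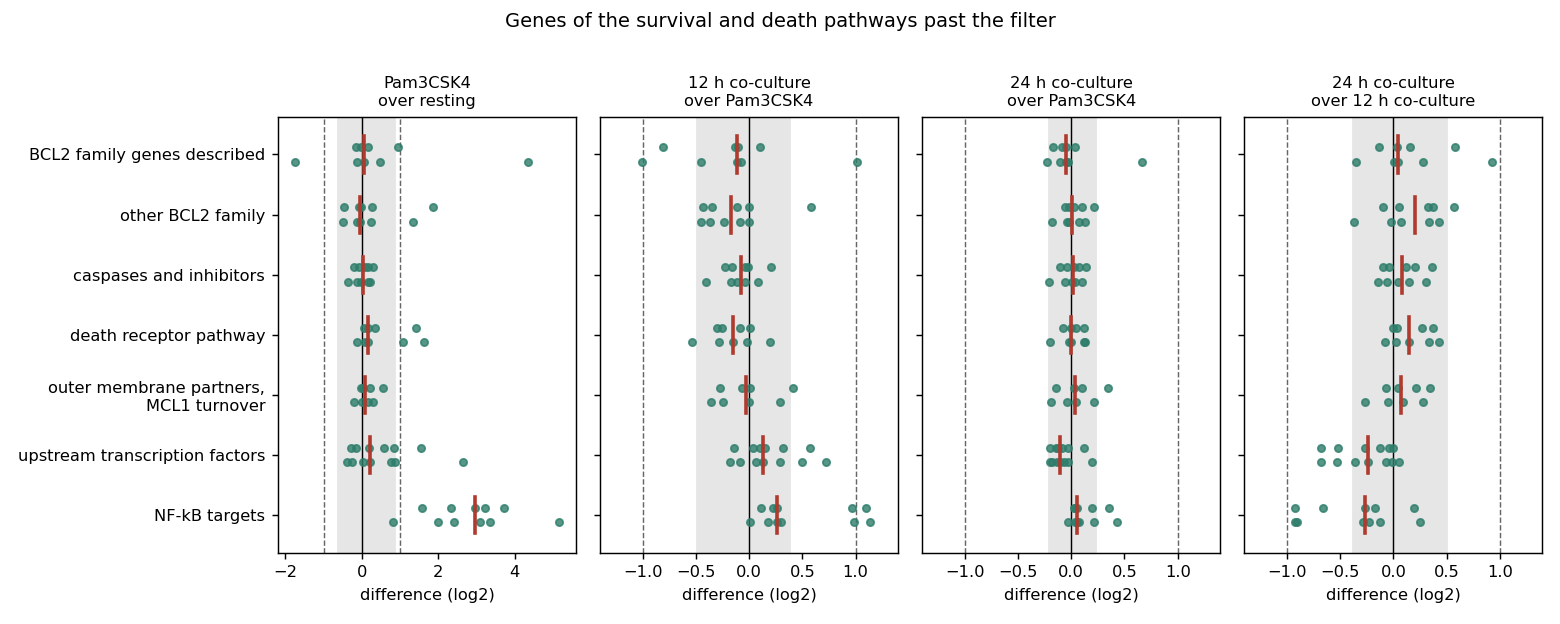
Difference between 2 arrays (log2, horizontal axis, wider scale in the left panel) for the genes past the filter in 7 lists of the survival and death pathways, 1 point per gene. Red bars are list medians, the grey band holds the middle 90% of all genes and dashed lines mark 2-fold; NF-kB targets have a median of 2.97 for Pam3CSK4 over resting and 0.26 at 12 h, while caspases and inhibitors stay inside 2-fold throughout.

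For the 3 genes that spanned at least 2-fold over the arrays, the 5 genes of most similar pattern were sought, by the Euclidean distance of their 3 differences from the resting array. This is a description over 4 arrays, and the pattern itself was the basis of the choice. The resting values of BCL2A1 and, among its neighbours, IFI44, THBS1 and CXCL10 were under the filter level, so their distances and ranks depend on background. Nearest to BCL2A1 were CYBB, a subunit of the phagocyte oxidase, at a distance of 0.28 log2, the interferon-induced gene IFI44 at 0.34, IL4I1 at 0.51, THBS1 at 0.54 and CXCL10 at 0.56. CYBB had 11.38 log2 at 24 h, 11.85 at 12 h, 11.03 with Pam3CSK4 and 6.42 at rest. Nearest to BCL2 were MEST at 0.12, GIHCG at 0.15, PTPRF at 0.17, FBXO15 at 0.17 and PRTN3, a protease of immature myeloid granules, at 0.19. PRTN3 had 9.15 log2 at 24 h, 9.38 at 12 h, 9.34 with Pam3CSK4 and 11.16 at rest. Nearest to PMAIP1 were MTMR10 at 0.10, RHOC at 0.15, LONRF1 at 0.19, GPR18 at 0.19 and BCCIP at 0.20.

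Of the 10 monocytic markers that had a probe set (12 listed), 9 were at or above the filter level on every array. The exception was FCGR1A, at 4.41 to 4.94 log2. CD86 was barely past it at rest, at 6.20 log2. That level was reached on any array by 13410 of 19775 genes, so reaching it says little of cell type. The summed linear level of the 10 monocytic markers was 20259 at 24 h, 14368 at 12 h, 19121 with Pam3CSK4 and 13327 at rest. LYZ had 13.81, 13.29, 13.70 and 12.98 log2 in the same order and weighs most in these sums. Of the 9 markers past the filter, 2 were higher and 7 lower at 12 h than with Pam3CSK4, with a median of -0.23. They ran from -1.18 for CD14 and -1.16 for MNDA to 0.33 for CSF1R, and their part in the lower PMAIP1 and BAX values was not tested. Co-culture RNA can include that of the particles. The 3 probe sets of gamma globin (HBG1 and HBG2) were 3.38 to 5.004 log2 higher at 24 h and 2.62 to 4.04 higher at 12 h than with Pam3CSK4. Of 13 megakaryocyte and platelet markers, 7 were at or above the filter level at 24 h, 8 at 12 h, 7 with Pam3CSK4 and 8 at rest, with summed linear levels of 1635, 1906, 1676 and 2143. NRGN had 9.33, 9.60, 9.60 and 10.22 log2 in the same order and weighs most in these sums. Of the 8 markers past the filter, 6 were higher at 12 h than with Pam3CSK4, with a median of 0.37 against -0.05 over all genes, and 6 were higher at 24 h, with a median of 0.13 against -0.01. All of these but NRGN have a mean of 6 to 8 log2. Genes of that level had a median of 0.02 at 12 h, with a 95th percentile of 0.41. The platelet chemokine genes PF4 and PPBP stayed under the filter level on all arrays. Of 10 erythroid markers, 3 were at or above the filter level at 24 h, 4 at 12 h, 3 with Pam3CSK4 and 3 at rest, with summed linear levels of 749, 758, 631 and 619. Among them HBE1, the embryonic globin gene, was 2.05 log2 higher at 24 h than with Pam3CSK4. Its Pam3CSK4 value of 5.45 log2 lay under the filter level. Of the 4 erythroid markers past the filter, 3 were higher and 1 lower at 24 h than with Pam3CSK4, with a median of 0.07. At 12 h 4 were higher and 0 lower, with a median of 0.28. Of 9 lymphocyte markers, 5 were at or above the filter level at 24 h, 4 at 12 h, 3 with Pam3CSK4 and 3 at rest. Their summed linear levels were 1583, 1288, 1497 and 1130. NKG7 had 10.02, 9.45, 9.90 and 9.14 log2 in the same order and weighs most in these sums. Of the 5 lymphocyte markers past the filter, 4 were higher and 1 lower than with Pam3CSK4 at each co-culture time. The medians of these markers were 0.10 at 12 h and 0.11 at 24 h. CD3D and CD3E lay close to the filter level, at 6.20 and 6.26 log2 at 24 h and 6.10 and 5.94 with Pam3CSK4. The part of particle RNA in the co-culture values of BCL2 family genes was not tested.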

How the data were processed

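Biotin-labelled amplified RNA was read on Affymetrix arrays, per the labels' protocols. The authors deposited log2 values, made by RMA in affy 1.28.1 per the submitters' processing notes. No columns were left unmapped. The co-culture arrays carry 13 and 25 in their titles and 12 h and 24 h in their descriptions, which were used. Genes were named from a platform annotation in which 41091 probe sets name 1 gene. A gene was its probe set of highest mean, kept where any array gave at least the median of the whole table. Differences of 2 log2 values were counted at 2-fold, with no test. Named were all members, list genes at least 2-fold different (at most 4 a list and comparison), REL, and the 5 nearest patterns. A further list and its genes are not reported here. Marker lists were treated alike. The members and lists were chosen with earlier results of these data known. The counting was tested on simulated data. Alternatives were 2 other filters, averaged probe sets, omission of _x_at and _s_at probe sets, thresholds of 1.5-fold and 3-fold, and cyclic loess with 3 iterations in limma 3.58.1 under R 4.3.3. Other steps used Python 3.11.15, numpy 2.4.6 and pandas 2.3.3.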

Additional observations from a re-analysis of the deposited data

Results flagged for a closer look

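On their leading probe sets, BCL2L1 and BID stood on opposite sides of their Pam3CSK4 value at the 2 times of co-culture. BCL2L1 differed by -0.025 at 24 h and by 0.11 at 12 h. Its other probe set past the filter was higher at both times, by 0.09 at 24 h and 0.39 at 12 h, and the mean over its probe sets was 0.035 at 24 h and 0.0094 at 12 h. BID differed by 0.032 at 24 h and by -0.13 at 12 h. Each value rests on 1 array, the Pam3CSK4 array is shared, and the difference between the times was not tested.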

How the results depend on the processing

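Of 56 recomputed counts of genes past the threshold, 45 equalled the reported one or lay within 1.5 times of it. All 9 genes passed both other filters on the same probe sets, so no member count or difference could change there. Those 2 settings are part of the 56 counts and of the 172 differences below, so their agreement was fixed in advance. Averaging could not move BCL2A1 or BAK1, which have 1 probe set each. Omission of _x_at and _s_at probe sets could not move BCL2A1, BCL2, BCL2L1, BCL2L11 or BAK1, whose leading probe sets are of neither kind. Counts of 0 at 2-fold could not change at 3-fold. Both totals thus include further agreement that was fixed. With probe sets averaged, 0 genes were lower with Pam3CSK4, where BCL2 stood at -0.72, and 0 lower at 12 h, where PMAIP1 stood at -0.63. Without _x_at and _s_at probe sets, 2 were higher with Pam3CSK4, BCL2A1 and BID, and 0 lower at 12 h, since BAX and PMAIP1 then have no probe set. After cyclic loess 0 were lower at 12 h, with PMAIP1 at -0.91. At 1.5-fold, 2 were higher with Pam3CSK4 (BCL2A1 and BID), 2 lower at 12 h (BAX and PMAIP1), 1 higher at 24 h (BCL2A1) and 1 higher at 24 h than at 12 h (PMAIP1). At 3-fold, 0 were higher and 0 lower at 12 h. Of 172 recomputed differences of single genes 15 took the opposite sign, and in 2 of these, both of MCL1 without _x_at and _s_at probe sets, a value reached 0.2 in size (-0.25 with Pam3CSK4 and 0.24 at 24 h). Over all genes, averaging the probe sets gave 26 lower at 12 h, against 47, 21 higher at 24 h than at 12 h, against 46, and 1 higher at 24 h, against 4, as did a filter at the 75th percentile. A threshold of 1.5-fold gave 383 lower at 12 h and one of 3-fold gave 6. No paired analysis was possible because each condition had 1 array. No detection calls were used, so signal over background was judged by level only, which limits the size of the BCL2A1 difference from resting cells.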

Other observations

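Probe sets under the filter level on all 4 arrays, 6 in number, were left out of the comparisons. Among them 1, annotated to the transcript of the short, death-promoting form of BCL2L1, had 6.02 log2 at 24 h of co-culture, 5.67 at 12 h, 6.09 with Pam3CSK4 and 6.003 at rest. It was singled out after its values were seen: it was at -0.42 for 12 h over Pam3CSK4, where a probe set of the same gene past the filter was 0.39 higher. At its level it cannot be told from background here.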
